A study of Drosophila melanogaster with 12 samples.

Results

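The effect of losing the estrogen-related receptor (ERR) in adult females was described from 6 RNA-seq libraries out of the 12 in the series, the 3 *ERR*[cond.2] knockouts and the 3 *ERR*[cond.2] controls. They were chosen by their labels, no expression value was used to choose them, and all genes were followed. All 6 carried the *ERR1* and *ERR2* mutant alleles, *hsflp* and the *FRT-ERR::eGFSTF-FRT* transgene. *ERR1* has a small deletion that takes away a splice acceptor together with point mutations, and *ERR2* lacks the whole *ERR* coding region and parts of its neighbours *CG7979* and *Atg18a*, so in controls as well as knockouts the only copy of *ERR* without a mutation was the transgene, a GFP-tagged genomic construct between FRT sites. Heat turns on the Flp recombinase of *hsflp* in the whole body, which cuts the transgene out. Knockouts received a heat shock of 37 °C when 0 to 2 d old and a further one after 24 h, and controls were siblings that received none. Whole females were collected 7 d after the heat shock, 10 to a library, from 3 independent experiments. Heat shock and *ERR* loss therefore cannot be told apart in this comparison. Alleles are numbered in the count table, where number 2 was read as *ERR*[cond.2], which no source used here states outright.

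ERR is the only *Drosophila* member of the ERR family of orphan nuclear receptors, which bind DNA and turn on genes of energy metabolism. In *Drosophila* larvae ERR is known for driving glycolysis, the pentose phosphate pathway and lactate production, the pattern of aerobic glycolysis that goes with growth. Glycolysis splits glucose into pyruvate, the pentose phosphate pathway makes NADPH and ribose from the same sugar, and glycogen is the store from which sugar phosphate is taken. In adult females the fat body is a source of yolk proteins, though not the only one. Follicle cells of the ovary make the vitelline membrane and the chorion of the egg.

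Counts assigned to genes ran from 17167432 to 20625801 per library, and 11475 to 11733 genes had a count. Levels are given as CPM, counts relative to library size after trimmed mean of M values scaling, and the test was the quasi-likelihood test of edgeR with Benjamini-Hochberg adjustment over 9660 genes. Transcripts were called at an adjusted p under 0.05, and a change is the log2 ratio of knockout to control, given with its standard error (SE). Libraries 1 of both groups lay at the ends of the range for yolk, vitelline membrane and chorion transcripts, so the main results are also given without them. The 3 yolk protein transcripts took 8.65, 5.65 and 8.26% of the counts in controls 1, 2 and 3, against 2.90, 3.73 and 5.01% in knockouts. The 9 vitelline membrane transcripts took 0.325, 0.712 and 0.558% in controls against 1.70, 1.35 and 0.924% in knockouts. Both shares were separated between the groups (exact permutation test, two-sided, p = 0.1, the smallest that 3 libraries against 3 allow). In RNA from whole animals, fewer cells of a type and less RNA per cell cannot be told apart. Of 14 transcripts of the male reproductive tract, none reached the level needed for testing.

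*ERR* itself (chromosome 3L, 8183361 to 8186671, minus strand) had 8.14, 11.7 and 8.97 CPM in controls 1, 2 and 3 and 9.08, 9.95 and 9.86 CPM in knockouts 1, 2 and 3 (log2 change 0.01 with SE 0.17, edgeR adjusted p = 0.988). The groups overlapped, and the sign of the change turned when single libraries were left out (log2 fold change −0.10 without control 1). Transcripts of the *ERR1* allele can be counted under the same name, so these counts do not measure how much of the transgene was removed. *CG7979* had 49.6, 43.96 and 46.3 CPM in controls against 35.5, 40.1 and 32.4 CPM in knockouts, all knockouts below all controls, and the difference did not pass the test (log2 change −0.37 with SE 0.10, edgeR adjusted p = 0.135). *Atg18a* had 57.4, 76.995 and 72.6 CPM in controls against 86.8, 82.7 and 81.2 CPM in knockouts and did not pass the test either (log2 change 0.28 with SE 0.11, edgeR adjusted p = 0.213).

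Of the 9660 genes tested 61 were called (0.631%), with 45 lower (0.466%) and 16 higher (0.166%) in knockouts. The lower transcripts were dominated by enzymes of sugar metabolism, and 25 of the 45 belonged to lists for glycolysis, the pentose phosphate pathway, glycogen and trehalose, sorbitol and aldose reduction, or cytosolic NADH recycling. In that order these lists held 13, 7, 11, 7 and 10 of the 9660 genes tested. They were chosen with earlier results of these data known, so the count is a description and no test. The 16 higher transcripts shared no such list, and only 4 of them belonged to any of the 36 lists used. Of the lower transcripts 44 were protein coding and 21 fell by at least 1 on the log2 scale. Of the higher transcripts, all protein coding, 5 rose by at least 1. The median log2 fold change was −0.89 for the lower and 0.88 for the higher transcripts, against −0.01 for all genes tested. The lower transcripts were also more abundant, with a median control level of 147 CPM against 49.9 CPM for the higher ones and 31.3 CPM for all. Both directions came from every large chromosome arm, with 14 lower transcripts on 3R and 7 or 8 on each of 2L, 2R, 3L and X, and no pair of called genes lay within 30 kb of each other. The nearest pair, *rt* and *CG6084*, was 32764 bp apart.

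**Figure D1:**
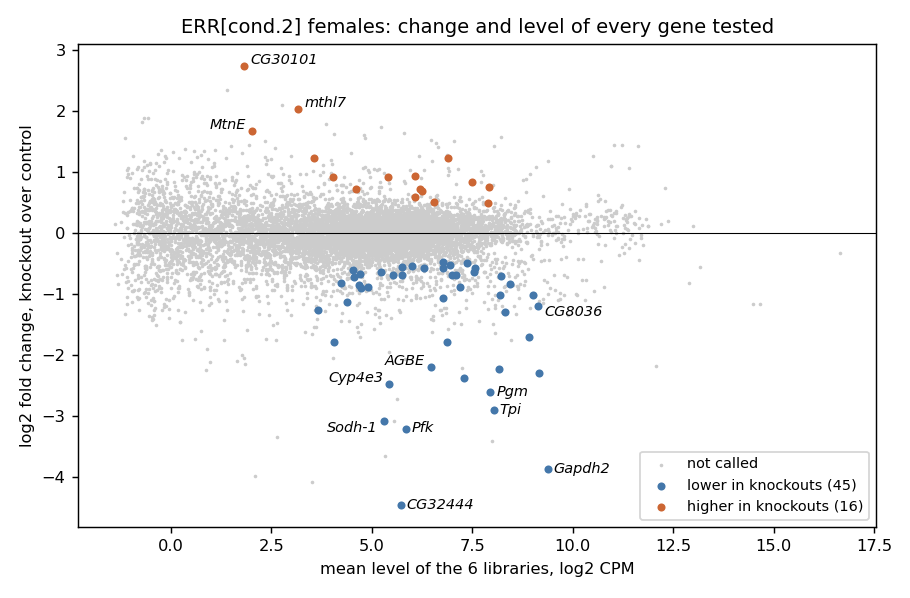
Log2 fold change (knockout over control) of each of the 9660 genes tested against its mean level in the 6 libraries (log2 CPM), one point a gene. Blue points are the 45 transcripts called lower and orange points the 16 called higher, and several of the lower transcripts, such as *Gapdh2* (log2 fold change −3.86), are at the abundant end.

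The numbers of calls depended on the libraries. Leaving out 1 library at a time gave 15 (without knockout 1), 16 (without knockout 2), 20 (without control 3), 25 (without knockout 3), 35 (without control 1) and 44 calls (without control 2). Without libraries 1 of both groups 19 were called, all of them among the 61. With total counts in place of the trimmed mean of M values, 31 were lower and 24 higher, and the median of all genes moved to 0.08 on the log2 scale. DESeq2 called 291 lower and 267 higher transcripts, the 61 among them. Of the 61 transcripts, 13 kept the call whichever library was left out. They were 12 enzymes of glycolysis and glycogen metabolism and 1 of the higher transcripts, namely *Gapdh2*, *Tpi*, *Pglym78*, *Pfk*, *Eno*, *AGBE*, *Gapdh1*, *Pgi*, *Pgk*, *GlyS*, *Ald*, *Pgm* and *mthl7*.

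Most of the glycolytic transcripts fell. Of 14 genes 13 were tested, 10 fell (against 0.466% of all genes), none rose, and the median log2 fold change was −1.79. *Gapdh2* stood at 1184, 1235 and 1321 CPM in controls 1, 2 and 3 and at 83.5, 88.1 and 85.2 CPM in knockouts 1, 2 and 3 (log2 change −3.86 with SE 0.09, edgeR adjusted p = 6.6e-06). *Gapdh2*, which encodes glyceraldehyde-3-phosphate dehydrogenase, was thus 14.6-fold lower, and the spread within each group was small beside the gap between them. *Gapdh1* had 762, 715 and 744 CPM in controls against 227, 223 and 231 CPM in knockouts (log2 change −1.71 with SE 0.08, edgeR adjusted p = 9.3e-05), so the second gene for the same enzyme was 3.27-fold lower. *Tpi*, triose phosphate isomerase, which makes the substrate of both, fell from 448, 468 and 471 CPM to 60.8, 62.9 and 63.2 CPM (log2 change −2.89 with SE 0.08, edgeR adjusted p = 6.6e-06). The 3 knockouts were close to each other for this transcript and far below every control.

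The enzymes of the upper pathway fell to different extents. *Pfk*, phosphofructokinase, the committed step of glycolysis, fell from 89.9, 113 and 110.4 CPM to 12.2, 10.95 and 10.6 CPM (log2 change −3.21 with SE 0.12, edgeR adjusted p = 3.8e-05). *Pgi* had 169.7, 180.1 and 194 CPM in controls against 50.8, 50.7 and 56.04 CPM in knockouts (log2 change −1.79 with SE 0.08, edgeR adjusted p = 1.1e-04), and it encodes phosphoglucose isomerase, which feeds *Pfk* with fructose-6-phosphate. *Ald*, aldolase, which splits the product of *Pfk*, fell from 481, 422 and 464 CPM to 179.9, 179 and 202 CPM (log2 change −1.29 with SE 0.09, edgeR adjusted p = 0.00155). The entry step did not pass the test. *Hex-A* had 109, 112 and 104 CPM in controls against 96.5, 94.99 and 96.6 CPM in knockouts, all knockouts below all controls (log2 change −0.18 with SE 0.06, edgeR adjusted p = 0.178). *Hex-C* had 90.9, 61.1 and 55.7 CPM in controls against 33.6, 47.9 and 58.7 CPM in knockouts, with overlapping groups (log2 change −0.57 with SE 0.25, edgeR adjusted p = 0.230). Both encode hexokinases, which phosphorylate glucose.

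The enzymes of the lower pathway fell as well. *Pgk*, phosphoglycerate kinase, fell from 492, 475 and 447 CPM to 87.9, 104 and 111 CPM (log2 change −2.22 with SE 0.11, edgeR adjusted p = 1.3e-04). *Pglym78*, phosphoglycerate mutase, fell from 252, 269 and 263 CPM to 47.7, 54.8 and 49.4 CPM (log2 change −2.37 with SE 0.08, edgeR adjusted p = 3.8e-05). *Eno*, enolase, fell from 991, 935 and 928 CPM to 181, 202 and 202 CPM (log2 change −2.29 with SE 0.09, edgeR adjusted p = 4.7e-05). These 3 neighbouring steps thus fell by similar amounts, between 2.22 and 2.37 on the log2 scale. *PyK*, pyruvate kinase, which makes pyruvate, fell from 397, 450.02 and 483 CPM to 249, 258 and 237 CPM (log2 change −0.84 with SE 0.10, edgeR adjusted p = 0.0188), and its call was lost without any 1 library other than control 1 (adjusted p up to 0.111, edgeR). *ImpL3* had 26.04, 24.2 and 23.7 CPM in controls against 8.57, 9.22 and 22.3 CPM in knockouts, where knockouts 1 and 2 were low and knockout 3 was close to the controls (log2 change −0.88 with SE 0.35, edgeR adjusted p = 0.206). *ImpL3* encodes lactate dehydrogenase, and its lower value in the knockouts did not pass the test. Part of *Eno* (18.6% of its span) overlaps *Rrp40* and part of *Pgk* (10.1%) overlaps *Bacc*, each on the opposite strand, and no source used here says if the counting read the strand.

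**Figure D2:**
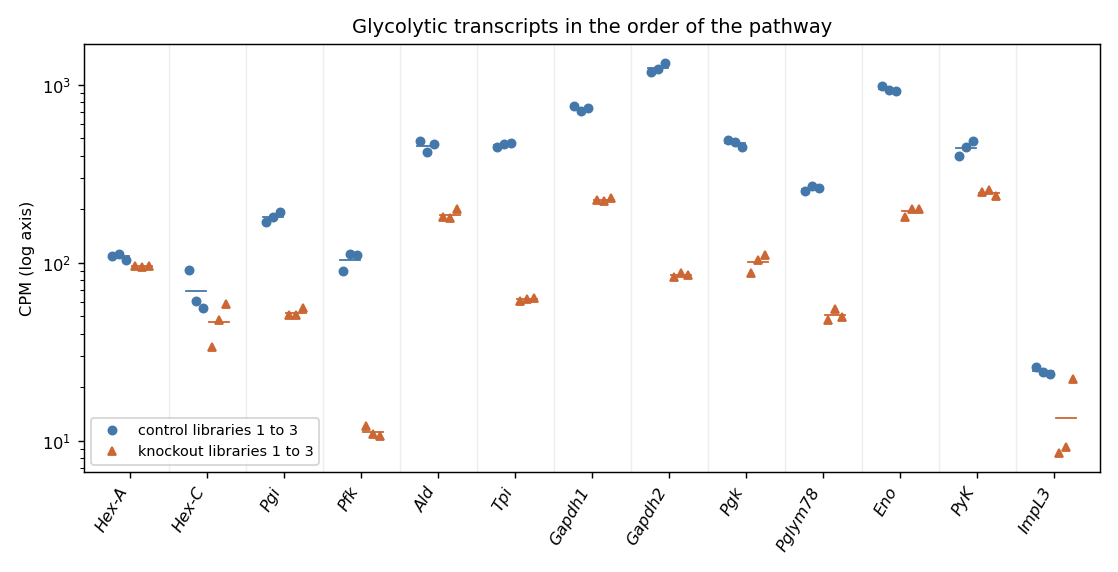
Level of each tested glycolytic transcript in CPM on a log axis, from hexokinase on the left to lactate dehydrogenase (*ImpL3*) on the right. Circles are the 3 control libraries, triangles the 3 knockouts and short lines the group means, and from *Pgi* to *PyK* the 2 groups are apart for every transcript while *Hex-C* overlaps.

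Levels were also set against gene length, so that different genes can be compared, as FPKM (CPM per kilobase of the deposited gene length). The 13 tested glycolytic transcripts summed to 2839, 2843 and 2929 FPKM in controls 1, 2 and 3. In knockouts 1, 2 and 3 the sum was 614, 649 and 664 FPKM, or 22.4% of the control mean. The sum thus varied little within a group.

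Enzymes that build and break down glycogen fell together. Of 11 genes for glycogen and trehalose 5 fell, none rose, and the median was −0.69. *Pgm*, phosphoglucomutase, which links glycogen with glycolysis, fell from 502, 365 and 405 CPM to 51.8, 81.1 and 76.1 CPM (log2 change −2.60 with SE 0.20, edgeR adjusted p = 0.00241). *AGBE*, the glycogen branching enzyme, fell from 161, 139 and 140.03 CPM to 28.8, 34.02 and 32.9 CPM (log2 change −2.20 with SE 0.10, edgeR adjusted p = 9.3e-05). *GlyS*, glycogen synthase, fell from 144, 149 and 153 CPM to 69.5, 71.01 and 73.4 CPM (log2 change −1.06 with SE 0.07, edgeR adjusted p = 6.0e-04). Both the enzyme that builds the chain and the one that branches it were therefore lower in every knockout. *UGP*, which makes UDP-glucose for the synthase, fell from 165, 167 and 172 CPM to 97.8, 104 and 109.8 CPM (log2 change −0.69 with SE 0.07, edgeR adjusted p = 0.0115). The breakdown side was lower too, for *GlyP*, glycogen phosphorylase, fell from 419.7, 358 and 396 CPM to 182, 215 and 182 CPM (log2 change −1.02 with SE 0.11, edgeR adjusted p = 0.0115). *PhKgamma*, the catalytic subunit of the kinase that activates glycogen phosphorylase, was outside the list and fell from 66.6, 64.6 and 68.01 CPM to 40.1, 41.5 and 41.9 CPM (log2 change −0.69 with SE 0.07, edgeR adjusted p = 0.00904). The calls of *UGP* and *PhKgamma* were lost without control 3, knockout 1 or knockout 2 and that of *GlyP* without control 3, knockout 1 or knockout 3 (adjusted p up to 0.0933, edgeR).

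The other members for glycogen and trehalose did not pass the test. *CG9485* had 42.1, 25.3 and 35.2 CPM in controls against 10.04, 16.7 and 18.5 CPM in knockouts, all knockouts below all controls (log2 change −1.18 with SE 0.26, edgeR adjusted p = 0.116). It encodes the glycogen debranching enzyme. *Treh* had 668, 359 and 434 CPM in controls against 219.8, 372 and 313 CPM in knockouts (log2 change −0.69 with SE 0.27, edgeR adjusted p = 0.2004). *Tps1* had 575, 429.6 and 387 CPM in controls against 252, 323 and 444 CPM in knockouts (log2 change −0.45 with SE 0.23, edgeR adjusted p = 0.283). For *Treh*, trehalase, and *Tps1*, which makes trehalose, the circulating sugar of insects, the groups overlapped, with control 1 the highest of all libraries.

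Falls in the pentose phosphate pathway were smaller. All 7 tested genes of 8 had every knockout below every control, which 14.6% of all genes tested had, and 4 passed the test. The calls were all in the non-oxidative branch, which interconverts sugar phosphates. *CG8036*, transketolase, fell from 901, 656 and 803 CPM to 299, 369.7 and 362 CPM (log2 change −1.20 with SE 0.14, edgeR adjusted p = 0.0218). *Tal*, transaldolase, fell from 167, 157 and 151 CPM to 89.1, 108 and 99.01 CPM (log2 change −0.68 with SE 0.09, edgeR adjusted p = 0.0345). *CG30499* (*Rpe*), ribulose-phosphate epimerase, fell from 204, 192 and 184 CPM to 134, 135 and 142 CPM (log2 change −0.50 with SE 0.07, edgeR adjusted p = 0.0435). *Rpi*, ribose-5-phosphate isomerase, fell from 119, 134 and 130.3 CPM to 93.3, 90.8 and 92.2 CPM (log2 change −0.47 with SE 0.07, edgeR adjusted p = 0.0465). These 4 calls rest on few libraries. Those of *Tal* and *CG30499* were lost without any 1 library, that of *Rpi* without any 1 library other than control 1, and that of *CG8036* without control 3 or any knockout (adjusted p up to 0.195, edgeR).

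The oxidative branch, which makes NADPH, did not pass the test. *Pgd*, 6-phosphogluconate dehydrogenase, had 218, 179 and 163 CPM in controls against 82.6, 111 and 118 CPM in knockouts (log2 change −0.85 with SE 0.16, edgeR adjusted p = 0.0833). *Zw*, glucose-6-phosphate dehydrogenase, had 27.9, 28.2 and 28.9 CPM in controls against 17.95, 21.6 and 20.6 CPM in knockouts (log2 change −0.50 with SE 0.10, edgeR adjusted p = 0.0938). *CG17333*, the lactonase between them, had 50.2, 45.7 and 43.7 CPM in controls against 35.4, 33.2 and 36.8 CPM in knockouts (log2 change −0.41 with SE 0.09, edgeR adjusted p = 0.109). DESeq2 called all 7 tested genes of the pathway lower, against 3.17% of the genes it tested.

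**Figure D3:**
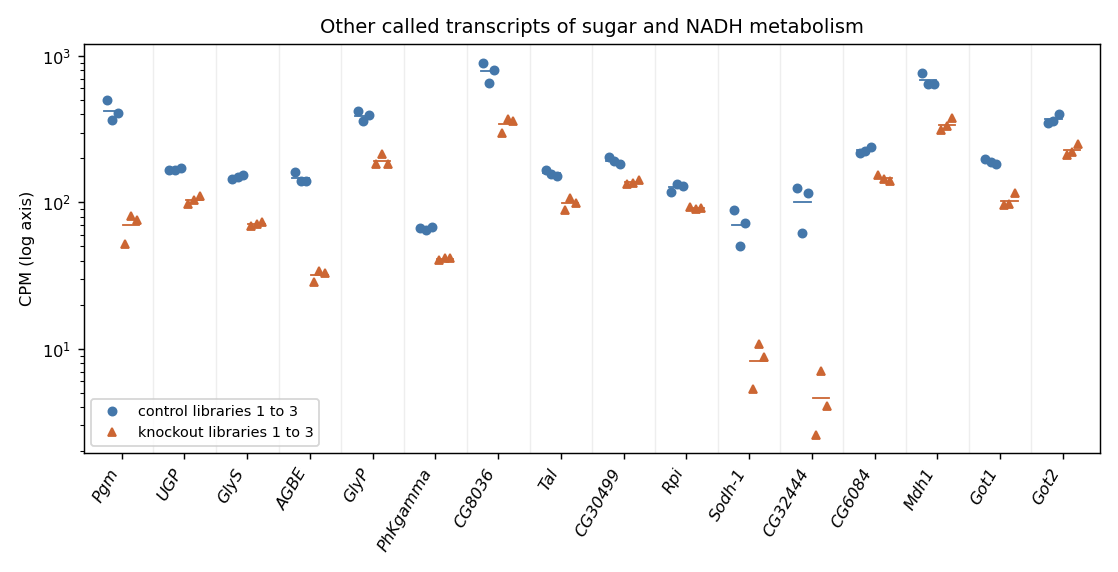
Level in CPM, on a log axis, of the called transcripts of glycogen metabolism, the pentose phosphate pathway, sorbitol and aldose reduction and NADH recycling, in control (circles) and knockout (triangles) libraries 1 to 3, with lines at the group means. In each of the 16 transcripts shown all 3 knockouts are below all 3 controls, and the gap is widest for *CG32444* (log2 fold change −4.46).

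The largest fall of any called transcript was outside glycolysis. *CG32444* stood at 126, 61.5 and 116 CPM in controls 1, 2 and 3 and at 2.59, 7.06 and 4.10 CPM in knockouts 1, 2 and 3 (log2 change −4.46 with SE 0.42, edgeR adjusted p = 0.00791). The deposited annotation gives *CG32444* (chromosome 3L, 21636947 to 21639060, plus strand) an aldose epimerase domain. *Sodh-1*, sorbitol dehydrogenase, fell from 88.6, 50.5 and 72.6 CPM to 5.32, 10.8 and 8.82 CPM (log2 change −3.08 with SE 0.30, edgeR adjusted p = 0.00904). For both the controls spread widely while no control came near a knockout, and without knockout 3 both lost the call (adjusted p = 0.0510, edgeR). *CG6084* (*Akr1B*), an aldo-keto reductase, fell from 219, 224 and 237 CPM to 154, 145 and 139 CPM (log2 change −0.64 with SE 0.08, edgeR adjusted p = 0.0218), a call lost without any 1 library other than control 1 (adjusted p up to 0.163, edgeR). The near relative *Sodh-2* had 10.7, 11.2 and 12.03 CPM in controls against 10.6, 12.1 and 13.1 CPM in knockouts and was not called (log2 change 0.08 with SE 0.13, edgeR adjusted p = 0.752). In all, 3 of 7 tested members for sorbitol and aldose fell and none rose, with a median of −0.21 (−0.07 without libraries 1).

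Of 10 genes listed for cytosolic NADH recycling, which include mitochondrial partners and malic enzymes, 3 fell, none rose, and the median was −0.02. *Mdh1*, cytosolic malate dehydrogenase, fell from 770.3, 647 and 648 CPM to 310.3, 333.966 and 376 CPM (log2 change −1.02 with SE 0.11, edgeR adjusted p = 0.0162). *Got1*, an aspartate aminotransferase, fell from 197, 189.9 and 184 CPM to 95.4, 98.1 and 115.3 CPM (log2 change −0.89 with SE 0.09, edgeR adjusted p = 0.0115). *Got2*, the other aspartate aminotransferase, fell from 347, 362 and 399.7 CPM to 211, 222 and 251 CPM (log2 change −0.70 with SE 0.10, edgeR adjusted p = 0.0380). All 3 belong to the malate-aspartate shuttle, which carries reducing equivalents into mitochondria. The mitochondrial partner *Mdh2* had 393, 403 and 418 CPM in controls against 399, 400.03 and 422 CPM in knockouts (log2 change 0.01 with SE 0.08, edgeR adjusted p = 0.967). *Gpdh*, of the glycerol-3-phosphate shuttle, had 116, 135 and 133 CPM in controls against 126, 124 and 125 CPM in knockouts (log2 change −0.04 with SE 0.08, edgeR adjusted p = 0.806). Both groups of libraries overlapped for these last genes, and their signs, on values near 0, turned with the setting. The calls of *Mdh1* and *Got1* were lost without control 3, knockout 1 or knockout 2 (adjusted p up to 0.122, edgeR) and that of *Got2* without any 1 library (adjusted p 0.0595 to 0.192, edgeR).

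A few lower transcripts outside these lists also have a place in sugar or cofactor metabolism. *CG8417* (*Mpi*), mannose phosphate isomerase, fell from 37.99, 30.97 and 35.5 CPM to 18.8, 17.9 and 19.6 CPM (log2 change −0.89 with SE 0.10, edgeR adjusted p = 0.0188). *CG3714* (*Naprt*), nicotinate phosphoribosyltransferase of NAD synthesis, fell from 29.6, 28.4 and 28.02 CPM to 11.3, 12.2 and 15.7 CPM (log2 change −1.13 with SE 0.14, edgeR adjusted p = 0.0218). *CG3699* fell from 33.7, 19.996 and 24.1 CPM to 8.11, 7.74 and 6.75 CPM (log2 change −1.78 with SE 0.21, edgeR adjusted p = 0.0188). Each was separated between the groups in all libraries. *Lsd-1*, a perilipin that coats lipid droplets, fell from 44.3, 40.9 and 31.5 CPM to 21.2, 20.4 and 21.8 CPM (log2 change −0.88 with SE 0.13, edgeR adjusted p = 0.0465), and *Cyp4e3*, a cytochrome P450, fell from 116, 54.3 and 51.2 CPM to 10.4, 16.05 and 13.1 CPM (log2 change −2.48 with SE 0.35, edgeR adjusted p = 0.0380). *Lsd-1* was the only call among 15 tested genes of lipolysis and beta-oxidation. *Cyp4e3* was the only call in a list of 74 tested genes, mostly cytochromes P450. *CG8417*, *CG3699* and *Cyp4e3* lost the call if control 3 or a knockout was left out, *CG3714* if any library but knockout 3 was, and *Lsd-1* if any but control 3 was (adjusted p up to 0.195, edgeR).

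Among the other lower transcripts were 5 with known roles in the germline, the embryo or the chromosomes. Each of these 5 fell by less than 1 on the log2 scale, and other lower transcripts were not sorted by role. *nos*, nanos, a translational repressor of the germline, fell from 237, 234 and 213 CPM to 149, 151 and 163 CPM (log2 change −0.56 with SE 0.08, edgeR adjusted p = 0.0380). *Mcm3*, a subunit of the replicative helicase, fell from 155, 148 and 138 CPM to 99.04, 100.3 and 107 CPM (log2 change −0.53 with SE 0.08, edgeR adjusted p = 0.0380). *Spc25*, a kinetochore protein, fell from 68.1, 62.1 and 61.2 CPM to 42.2, 44.5 and 44.2 CPM (log2 change −0.55 with SE 0.08, edgeR adjusted p = 0.0380). *HP1b*, a heterochromatin protein, had a log2 fold change of −0.53 (adjusted p = 0.0380, edgeR), and *dah*, needed for cellularization of the embryo, −0.57 (adjusted p = 0.0355, edgeR). All 5 lost the call without any 1 library (adjusted p up to 0.195, edgeR), and *nos* overlaps *CG11779* over 89.1% of its span and *Spc25* lies wholly within *grsm*, both on the opposite strand. Of 15 tested germline genes *nos* was the only call, 3 had p under 0.05 before adjustment, DESeq2 called 3 lower, and the summed germline share of the counts overlapped between the groups. Of 32 tested DNA replication genes *Mcm3* was the only call, 24 had a negative change (50.9% of all genes had), and 16 had all knockouts below all controls (14.6% of all genes had). Before adjustment 12 of the 32 had p under 0.05, all lower, and DESeq2 called 5 lower. For comparison, 2162 of all 9660 genes tested had p under 0.05 before adjustment, and DESeq2 called 3.17% of its genes lower. *Orc2* had 63.2, 52.001 and 52.7 CPM in controls against 33.4, 36.8 and 37.9 CPM in knockouts, just outside the threshold (log2 change −0.64 with SE 0.10, edgeR adjusted p = 0.0532). *DNApol-delta* had 67.1, 62.98 and 64.9 CPM in controls against 47.2, 51.5 and 55.2 CPM in knockouts (log2 change −0.34 with SE 0.08, edgeR adjusted p = 0.120). Both were separated between the groups, and neither passed the test.

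The remaining lower transcripts changed by less than 1 on the log2 scale except *snRNA:U12:73B*, a spliceosomal RNA, which fell from 19.7, 13.4 and 20.3 CPM to 7.56, 6.63 and 8.20 CPM (log2 change −1.25 with SE 0.19, edgeR adjusted p = 0.0442). It lies within *Baldspot* on the opposite strand and lost the call without any 1 library other than control 2 (adjusted p up to 0.195, edgeR). The others were *CG3313*, *CG12728*, *Corp*, *Bgb*, *Dip2*, *CG5235*, *rt* and *CG4570*, with log2 fold changes from −0.85 for *CG3313* to −0.57 for *CG4570*. *Corp* lies wholly within *CG1632* on the opposite strand. *rt*, a protein O-mannosyltransferase, was the last transcript inside the threshold (log2 fold change −0.61, adjusted p = 0.0465, edgeR). Among these 8 *Bgb* kept the call only without control 1, and the other 7 lost it without any 1 library (adjusted p up to 0.197, edgeR). The first transcripts outside the threshold were *Acer*, *CG8317* and *slam* (adjusted p from 0.0508 to 0.0509, edgeR).

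The only rise that held in every setting with a library left out was that of *mthl7*, a receptor gene of the methuselah family that lies beside *CG7979* and *ERR* (chromosome 3L, 8178675 to 8180514, minus strand). *mthl7* stood at 4.39, 2.99 and 3.18 CPM in controls 1, 2 and 3 and at 13.2, 15.2 and 14.997 CPM in knockouts 1, 2 and 3 (log2 change 2.04 with SE 0.18, edgeR adjusted p = 0.00642). It was 4.11-fold higher, and the other 11 tested members of the methuselah family were not called.

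The other higher transcripts were of mixed kinds. *CG30101* (*Vajk4*) rose most in fold terms from a low level, with 0.346, 1.49 and 0.891 CPM in controls against 6.34, 5.67 and 6.43 CPM in knockouts (log2 change 2.75 with SE 0.41, edgeR adjusted p = 0.0423). *MtnE*, a metallothionein, which binds metal ions, rose from 1.96, 2.30 and 1.56 CPM to 7.51, 6.25 and 4.93 CPM (log2 change 1.68 with SE 0.25, edgeR adjusted p = 0.0400). *CG34166* rose from 72.1, 65.3 and 77.04 CPM to 203, 177 and 123 CPM (log2 change 1.23 with SE 0.18, edgeR adjusted p = 0.0400). In each the lowest knockout was above the highest control. *CG6508*, with an aspartic protease domain in the deposited annotation, rose from 5.66, 7.76 and 7.74 CPM to 18.3, 15.2 and 16.4 CPM (log2 change 1.24 with SE 0.16, edgeR adjusted p = 0.0345). It lies within *Nos*, the nitric oxide synthase gene, on the opposite strand. The call of *MtnE* was lost without any 1 library, that of *CG34166* without any other than knockout 3, that of *CG6508* without any other than control 1, and that of *CG30101* without control 3 or any knockout (adjusted p up to 0.192, edgeR).

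Of the genes for fatty acid synthesis, 1 of 10 was called higher (against 0.166% of all genes) and none lower. The list as a whole was mixed, with 6 negative and 4 positive changes and a median of −0.10 (0.04 without libraries 1). All knockouts were below all controls for 3 members and above them for 2, and the summed share of the counts overlapped between the groups. *CG3523* (*FASN1*), fatty acid synthase, rose from 201, 195 and 189 CPM to 293, 267 and 271 CPM (log2 change 0.50 with SE 0.08, edgeR adjusted p = 0.0450). *CG8628* (*Acbp3*), an acyl-CoA binding protein, rose from 40.5, 43.2 and 55.8 CPM to 88.2, 82.1 and 97.9 CPM (log2 change 0.94 with SE 0.13, edgeR adjusted p = 0.0380) and was the only call among 7 tested acyl-CoA binding proteins and thioesterases. Both genes act on fatty acyl chains, and for both all knockouts were above all controls. *CG16985*, a thioesterase, had 18.6, 18.8 and 21.3 CPM in controls against 24.7, 27.1 and 29.8 CPM in knockouts, also separated but not past the test (log2 change 0.48 with SE 0.11, edgeR adjusted p = 0.118). The call of *CG3523* was lost without any 1 library and that of *CG8628* without any 1 library other than control 3 (adjusted p up to 0.192, edgeR).

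Smaller rises were seen for structural and signalling genes. *kst*, which encodes beta-heavy spectrin of the apical cytoskeleton, rose from 49.9, 56.5 and 53.4 CPM to 87.9, 78.7 and 75.8 CPM (log2 change 0.60 with SE 0.09, edgeR adjusted p = 0.0380). *Muc11A*, a mucin, rose from 78.5, 81.8 and 73.3 CPM to 109, 107 and 116 CPM (log2 change 0.51 with SE 0.07, edgeR adjusted p = 0.0380). *Dhit*, a regulator of G protein signalling, rose from 17.1, 18.1 and 19.9 CPM to 31.7, 27.5 and 32.1 CPM (log2 change 0.73 with SE 0.11, edgeR adjusted p = 0.0393). All 3 lost the call without any 1 library (adjusted p up to 0.183, edgeR), and *Muc11A* lies wholly within *Ten-a* on the same strand.

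The other 6 higher transcripts rose by 0.69 (*CG4363*) to 0.93 (*CG9568*) on the log2 scale. *CG9568* rose from 23.7, 30.7 and 33.7 CPM to 57.5, 55.4 and 54.5 CPM (log2 change 0.93 with SE 0.13, edgeR adjusted p = 0.0380). *CG13309* rose from 11.1, 11.8 and 11.1 CPM to 21.1, 21.8 and 21.6 CPM (log2 change 0.92 with SE 0.09, edgeR adjusted p = 0.0115). *CG14292* rose from 114, 148 and 125 CPM to 222, 223 and 248 CPM (log2 change 0.84 with SE 0.11, edgeR adjusted p = 0.0345). The knockouts were within a narrow range for each of them. *CG17108* rose from 166, 202 and 169 CPM to 327, 318 and 267 CPM (log2 change 0.76 with SE 0.12, edgeR adjusted p = 0.0465). *CG7953* rose from 55.01, 51.5 and 60.5 CPM to 93.6, 88.5 and 93.2 CPM (log2 change 0.72 with SE 0.08, edgeR adjusted p = 0.0155) and lies wholly within *CenG1A* on the same strand. *CG4363* rose from 59.4, 54.2 and 62.3 CPM to 86.5, 92.6 and 105 CPM (log2 change 0.69 with SE 0.10, edgeR adjusted p = 0.0380). None of these 6 kept the call in more than 2 of the 6 settings with a library left out (adjusted p up to 0.195, edgeR).

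**Figure D4:**
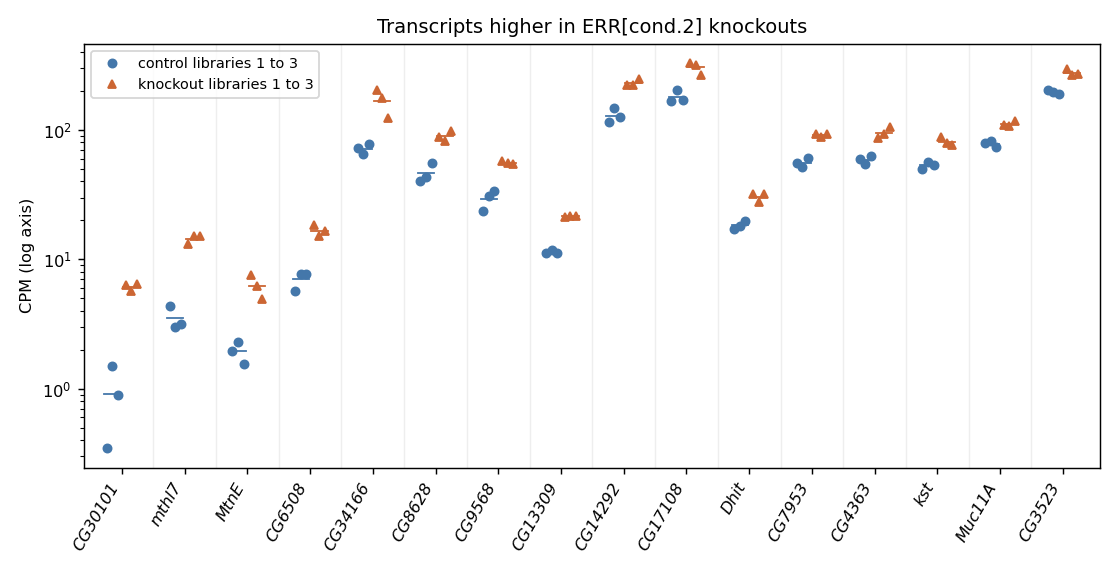
Level in CPM, on a log axis, of the 16 transcripts called higher, in control (circles) and knockout (triangles) libraries 1 to 3, with lines at the group means. They are ordered by fold change, and the largest changes on the left (*CG30101*, *mthl7*, *MtnE*) start from the lowest control levels.

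No transcript of the TCA cycle, oxidative phosphorylation or the cytoplasmic ribosome was called. None of 21 genes of the TCA cycle and pyruvate dehydrogenase passed the test, their median was 0.08, and 16 had a positive change. *l(1)G0156*, a subunit of isocitrate dehydrogenase, had 163, 189 and 186 CPM in controls against 283, 235 and 248 CPM in knockouts (log2 change 0.51 with SE 0.10, edgeR adjusted p = 0.0957). *Acon*, the aconitase of the cycle, had 267, 291 and 289 CPM in controls against 365, 333.9 and 365 CPM in knockouts (log2 change 0.33 with SE 0.08, edgeR adjusted p = 0.125). All knockouts were above all controls for both. Of 62 tested nuclear genes of oxidative phosphorylation 46 had a positive change, 29 had all knockouts above all controls, and none was called (median 0.11). Of 88 tested cytoplasmic ribosomal protein genes 72 were positive, 50 were separated upward and none was called (median 0.17). For comparison, 15.9% of all genes tested had all knockouts above all controls and 49.1% had a positive change. The ribosomal protein transcripts summed to 14, 16.7 and 16% of the counts in controls against 18.3, 17.7 and 19.1% in knockouts. Before adjustment 8 TCA cycle, 18 oxidative phosphorylation and 34 ribosomal protein transcripts had p under 0.05, where 2162 of all 9660 genes tested had. DESeq2 called 3, 3 and 12 transcripts of these lists higher and none lower, against 2.91% of the genes it tested.

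Heat shock genes were tested with the heat shock of the knockouts 7 d past. None of 19 tested members of 21 passed the test, and their median was −0.18, which turned to 0.07 without libraries 1 of both groups. Their summed share of the counts was 0.776, 0.785 and 0.735% in controls against 0.820, 0.803 and 0.817% in knockouts, separated upward (exact permutation test, two-sided, p = 0.1, the smallest possible). A summed share follows the most abundant members, and 16 of the 19 tested had a negative change (50.9% of all genes tested had). Only 1 had all knockouts above all controls (15.9% of all genes tested had), and none had all below. At p under 0.05 before adjustment there was 1 (2162 of all 9660 genes tested), and DESeq2 called none. *Hsp70Aa* had 4.33, 1.32 and 2.01 CPM in controls against 0.609, 2.16 and 1.35 CPM in knockouts, with overlapping groups (log2 change −0.88 with SE 0.57, edgeR adjusted p = 0.381). The copies of *Hsp70* are nearly identical, so how reads were shared among them is uncertain.

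Transcripts of the egg coats and of yolk and fat body had changes of opposite sign, and none passed the edgeR test. *Yp3*, a yolk protein, had 38364, 22286 and 34282 CPM in controls against 10986, 13746 and 17619 CPM in knockouts (log2 change −1.16 with SE 0.25, edgeR adjusted p = 0.109). *Vm26Aa*, of the vitelline membrane, had 1018, 2344 and 1752 CPM in controls against 5921, 4735 and 3132 CPM in knockouts (log2 change 1.43 with SE 0.34, edgeR adjusted p = 0.120). *Cp19*, of the chorion, had 566, 1587 and 1213 CPM in controls against 3796, 3393 and 1976 CPM in knockouts (log2 change 1.45 with SE 0.39, edgeR adjusted p = 0.135). In each the groups were separated, and in each library 1 of a group was the one farthest from the other group. All knockouts were above all controls for 8 of 9 vitelline membrane and 3 of 9 chorion genes (15.9% of all genes tested), and the medians were 1.27 and 1.10. Without libraries 1 of both groups the medians were 0.79 and 0.60. Before adjustment 8 vitelline membrane and 8 chorion transcripts had p under 0.05, where 2162 of all 9660 genes tested had. DESeq2 called 7 and 4 of the lists higher, against 2.91% of the genes it tested. Fat body transcripts had a median of −0.72 (−0.34 without libraries 1). DESeq2 called 4 of them and 2 yolk protein transcripts lower, against 3.17% of the genes it tested. *Lsp1beta*, a larval serum protein, had 819.9, 349.9 and 470.4 CPM in controls against 114.5, 225 and 147 CPM in knockouts (log2 change −1.75 with SE 0.36, edgeR adjusted p = 0.103). The 11 fat body transcripts took 0.336, 0.213 and 0.248% of the counts in controls against 0.146, 0.194 and 0.189% in knockouts. The part of these shifts in the calls for sugar enzymes was not tested. Without libraries 1 of both groups 17 of the 25 lower transcripts in the lists of sugar metabolism and NADH recycling were still called, and the yolk and vitelline membrane shares of the remaining libraries were still separated.

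Muscle transcripts mostly had positive and antimicrobial peptide transcripts negative changes, with no calls. Of 17 tested muscle genes none passed the test, 9 had p under 0.05 before adjustment, and their median was 0.18 (0.30 without libraries 1). DESeq2 called 3 of the muscle genes higher. Over all 9660 genes tested 2162 had p under 0.05 before adjustment, and DESeq2 called 2.91% of its genes higher and 3.17% lower. *TpnC4*, a troponin C, had 11.5, 8.79 and 11.6 CPM in controls against 21.7, 17.8 and 23.7 CPM in knockouts (log2 change 0.98 with SE 0.16, edgeR adjusted p = 0.0547). *Prm*, the paramyosin gene, had 36.02, 39.9 and 36.7 CPM in controls against 53.3, 49.8 and 55.7 CPM in knockouts (log2 change 0.50 with SE 0.08, edgeR adjusted p = 0.0564). Both were just outside the threshold, and the summed muscle share of the counts was separated between the groups, at 0.107, 0.104 and 0.102% in controls against 0.129, 0.127 and 0.126% in knockouts. The 15 tested antimicrobial peptide genes had a median of −1.73, with 14 negative and 6 at p under 0.05 before adjustment, and none was called by edgeR while DESeq2 called 3 lower. *AttC*, an attacin, had 459, 74.3 and 856 CPM in controls against 17.6, 61.5 and 51.995 CPM in knockouts (log2 change −3.40 with SE 0.87, edgeR adjusted p = 0.129). Controls 1 and 3 were high for it and control 2 was near the knockouts. *AkhR*, the receptor for adipokinetic hormone, had 41.3, 23.04 and 18.5 CPM in controls against 6.39, 9.66 and 14.4 CPM in knockouts, all knockouts below all controls (log2 change −1.44 with SE 0.38, edgeR adjusted p = 0.132). It was not called, nor was another of 18 genes tested for insulin and adipokinetic hormone signalling, of which 3 had p under 0.05 before adjustment and DESeq2 called 1.

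**Figure D5:**
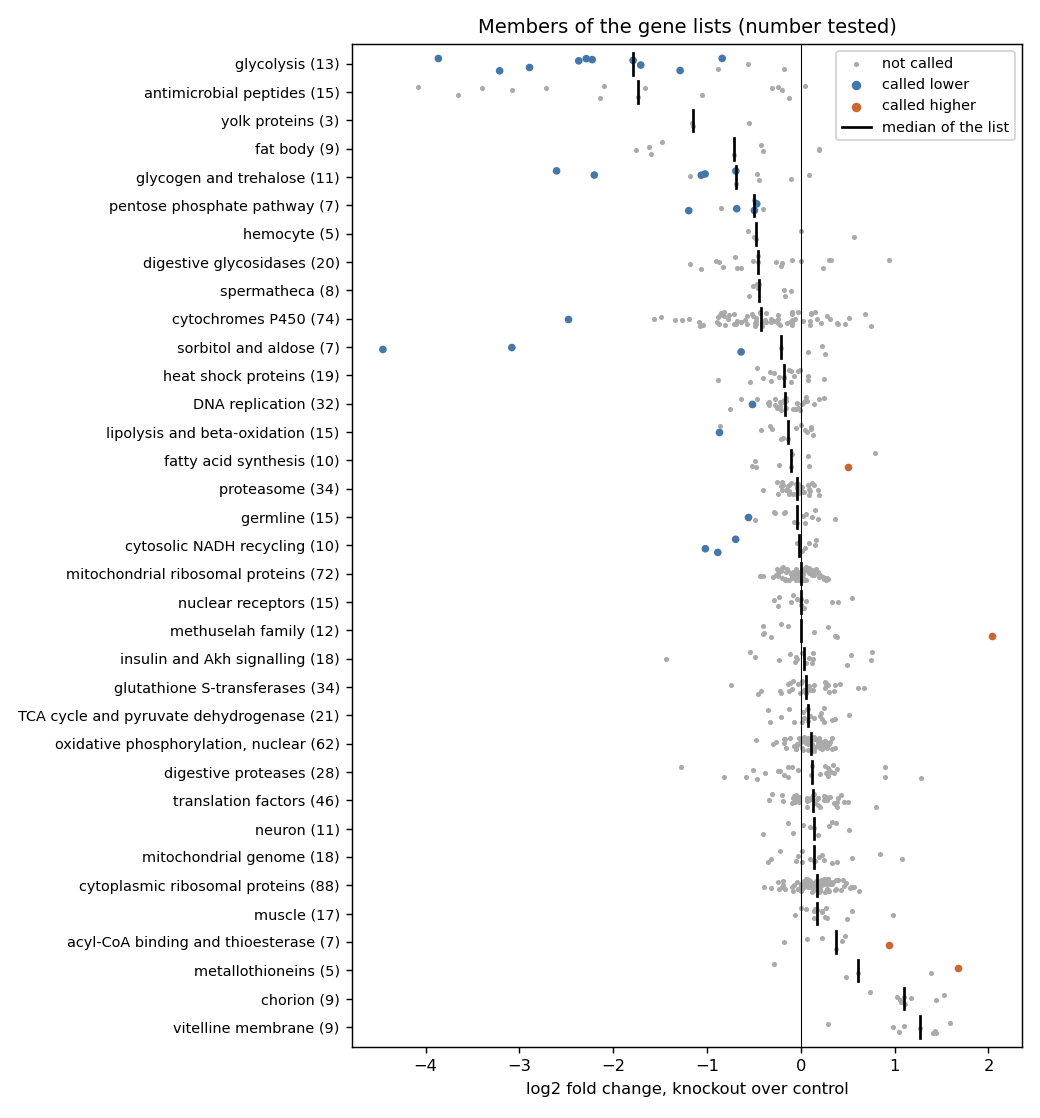
Log2 fold change (knockout over control) of the tested members of each gene list with at least 3 tested members, one point a gene, with the number tested in brackets and a black bar at the median of the list. Blue points passed the test as lower and orange points as higher. The lists of sugar metabolism and NADH recycling hold 25 blue points and no orange ones, while the antimicrobial peptides (median −1.73) and the vitelline membrane (median 1.27) hold none.

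The *ERR*[cond.19-4] females, in which the endogenous gene is removed and which have controls of their own, were used to see where this response differs. There 1.04% of 9717 genes were called lower and 2.67% higher. Of the 45 lower transcripts described above, 30 were called lower there too, none was called higher, and 42 had the same sign. Of the 16 higher ones, 7 were called higher, none lower, and 15 had the same sign. List medians in *ERR*[cond.19-4] females were −0.04 for yolk proteins, −0.01 for vitelline membrane, −0.24 for chorion and 0.10 for fat body. Antimicrobial peptides had a median of 1.74 there, muscle 0.18 and cytoplasmic ribosomal proteins 0.09. A test of the difference between the alleles called 6 of 10029 genes (0.0598%), all more negative in *ERR*[cond.2] females. *Gapdh2* fell by 3.86 in *ERR*[cond.2] and by 2.39 in *ERR*[cond.19-4] females on the log2 scale (difference −1.46, SE 0.11, adjusted p = 1.8e-04, edgeR). *Tpi* fell by 2.89 and 2.10 (difference −0.78, SE 0.10, adjusted p = 0.0174, edgeR). *Pfk* fell by 3.21 and 2.19 (difference −1.01, SE 0.15, adjusted p = 0.0410, edgeR). These 3 enzymes therefore fell with both alleles and, in this fit, further in *ERR*[cond.2] females. The number of genes called in this test depended strongly on the libraries. It was 98 if *ERR*[cond.2] control 2 was left out and 489 if knockout 3 of the same allele was. It was 1 if *ERR*[cond.2] knockout 2 or, of the other allele, control 1 or knockout 1 was left out. The common sign was not stable either. Negative differences numbered 50 of the 98 and 245 of the 489, the rest being positive. DESeq2 called 213 negative and 275 positive differences. With any other single library left out all calls were negative, except 1 of 5 without *ERR*[cond.2] control 3.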

How the data were processed

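TopHat alignment of paired reads and HTSeq counting by the authors gave the deposited raw counts, which carry no normalization, and the deposited gene length in bp was used for FPKM. No source used here gives tool versions, genome build or use of strand. Of 17558 gene identifiers 17252 were found in the reference annotation, and 98.4% had the same coordinates there. Columns with the authors' own comparisons were not used.

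The 6 *ERR*[cond.2] libraries were fitted on their own in edgeR 4.0.16 (R 4.3.3) with its quasi-likelihood test, filterByExpr, the trimmed mean of M values and no covariates, and Benjamini-Hochberg adjustment ran over 9660 genes at a threshold of 0.05. The SE is the absolute log2 fold change divided by the square root of F. Alleles were compared through the interaction term when all 12 libraries were fitted. Gene lists (36, of which 4 entries were not found) are described by counts and medians only. With 3 libraries against 3, the exact permutation test of a summed share cannot go below p = 0.1. p-values measure the spread between the 3 experiments of each group. Alternatives were DESeq2 1.42.0, its size factors, total counts, other filters and thresholds, a joint fit of the 12 libraries, a block for the replicate number, and libraries left out. The procedure was tested on simulated data. Figures were made with matplotlib 3.10.9 in Python 3.11.15, with pandas 2.3.3 and numpy 2.4.6.

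The gene lists with their members, and the setting without libraries 1, were chosen with earlier results of these data known. Genes named with values were every called transcript in a list and the 15 lower and 15 higher with the largest change, *ERR* and its neighbours, genes the study names, members of the sugar lists, the lowest p of other lists and genes past the threshold between alleles. *Hsp70Aa*, *Lsp1beta* and *AkhR* are among these lowest p. Whether ERR sites lie in the promoters was not analysed here.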

Additional observations from a re-analysis of the deposited data

Results flagged for a closer look

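A test of whether the response differed between the alleles (edgeR interaction, adjusted p under 0.05) called 6 genes. In this fit each had the more negative change in *ERR*[cond.2] females, whereas DESeq2 called 213 negative and 275 positive differences. For *Gapdh2*, *Tpi* and *Pfk*, glycolytic enzymes, the differences were −1.46, −0.78 and −1.01 on the log2 scale. *Lsp1alpha*, a larval serum protein of the fat body, changed by −1.62 on the log2 scale in *ERR*[cond.2] females and by 1.31 with the other allele (difference −2.92, SE 0.38, adjusted p = 0.0174, edgeR). In the *ERR*[cond.2] libraries *Lsp1alpha* had 49.7, 42.9 and 20.9 CPM in controls against 11.2, 12.9 and 12.9 CPM in knockouts. *Cyp4e3* had −2.48 and 0.65 (difference −3.11, SE 0.46, adjusted p = 0.0410, edgeR). *GstD2*, a glutathione S-transferase, had 0.09 and 1.69 (difference −1.59, SE 0.24, adjusted p = 0.0433, edgeR), and in the *ERR*[cond.2] libraries it had 15.9, 18.04 and 17.3 CPM in controls against 14.05, 18.3 and 22.2 CPM in knockouts. For *Lsp1alpha* and *GstD2* the change in *ERR*[cond.2] females alone did not pass the test (adjusted p = 0.0795 and 0.777, edgeR).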

How the results depend on the processing

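The 45 lower and 16 higher transcripts (61 in all) became 291 and 267 (558) with DESeq2, 628 and 786 (1414) with all 12 libraries in 1 fit, 31 and 24 (55) with total counts, and 64 and 33 (97) with every gene that had at least 1 count. A threshold of 0.01 left 15 and 1 (16), and a log2 fold change of at least 1 left 21 and 5 (26). With a replicate block 9 were lower and 0 higher, 9 in all. Libraries of the same number did not deviate together (correlations −0.35, −0.21 and 0.00). With 3 libraries a group these correlations cannot settle whether the numbers pair the samples, so pairing by experiment remains possible. Leaving out 1 library gave 15 to 44 calls, 14 to 38 lower and 1 to 8 higher. Without libraries 1 of both groups there were 19 calls, 18 lower and 1 higher. The difference between the alleles, called for 6 genes, all negative, was called for 488 with DESeq2 (213 negative, 275 positive). It was called for 1 with the replicate block and for 1 to 489 with a library left out. Some signs turned. The log2 fold change of ERR ran from −0.0993 to 0.167 with a library left out and was −0.0589 without libraries 1. The log2 fold change of Mdh2 ran from −0.0182 to 0.0303 and was −0.000575 without libraries 1. The log2 fold change of Gpdh was 0.0495 with total counts, and the log2 fold change of GstD2 ran from −0.0762 to 0.241 with a library left out. With 3 libraries a group, small changes are not detectable at this depth and spread, and a transcript that missed the threshold is not shown to be unchanged.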
